A study of Homo sapiens with 16 samples.

Results

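The collagen genes were taken as all genes whose symbol consists of COL, a number, the letter A and a number, which gave 43 of the 23709 genes in the read count tables. They were described in 16 RNA sequencing libraries from a pair of human lung lines, with 1 library per group. The cancer line H1299, derived from a non-small cell lung tumour, received either a plasmid for Flag-tagged FLII (the groups named FLII) or the empty plasmid (vector). HBE, labelled as lung epithelial cells, was stably infected with lentiviral vectors whose hairpin RNA targets FLII (knockdown) or was the control labelled NC, whose own vector the labels do not describe. Every group was at passage 15 to 18 and was grown in the same serum-containing medium. From each group came 4 libraries: mRNA, cytosol RNA, nuclear RNA, and RNA pelleted through sucrose with ribosome-nascent chain complexes (RNC), that is, RNA held by ribosomes after cycloheximide. FLII is an actin-binding protein of the gelsolin superfamily.

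Collagens are proteins of the extracellular matrix built from chains in groups of 3 that wind into a triple helix, and each gene encodes 1 kind of chain. Fibrillar collagens form the fibres of connective tissue, type IV collagens form the mesh of basement membranes, and type VII and type XVII collagens anchor an epithelium to the matrix under it. The chains are made on ribosomes at the endoplasmic reticulum (ER), where they are hydroxylated, folded by chaperones and sent out of the cell.

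The triple helix is written in the coding sequence as a run of triplets in which each first codon starts with GG, as all glycine codons do. A stretch of 63 coding bases is shown for 4 members that the results below turn on, from GENCODE 29 transcripts. Capitals mark the first codon of each triplet, a glycine codon, and a glycine codon elsewhere in a triplet stays in lower case. COL1A1 and COL5A2 are fibrillar, COL6A2 is a type VI chain and COL17A1 a transmembrane collagen.
COL1A1: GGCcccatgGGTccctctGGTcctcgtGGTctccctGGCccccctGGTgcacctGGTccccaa
COL5A2: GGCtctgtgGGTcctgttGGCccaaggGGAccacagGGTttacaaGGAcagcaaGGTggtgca
COL6A2: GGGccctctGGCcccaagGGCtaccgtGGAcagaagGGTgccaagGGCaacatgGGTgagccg
COL17A1: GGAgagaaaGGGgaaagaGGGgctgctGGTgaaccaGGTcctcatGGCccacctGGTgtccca
The stretches start at coding bases 535, 637, 766 and 1921. The longest unbroken run was 338 triplets in COL1A1, 339 in COL5A2, 87 in COL6A2 and 56 in COL17A1. Over the 43 members it ranged from 28 to 343 triplets with a median of 61, and the GC content of the transcript from 44.1% to 67.5%. Despite the shared repeat, 40 members shared at most 1% of their 50-base stretches with a transcript of another gene. The exceptions were COL18A1, which shared 20.2% with SLC19A1, a neighbouring folate transporter gene, COL15A1 with 1.62% and COL5A3 with 1.34%. The members are long, at 2485 to 11579 bases with a median of 5894, against a median of 2369 for all genes in the files.

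The libraries held 5943676 to 8344359 reads assigned to genes for mRNA, 26711771 to 38514467 for RNC, 5914489 to 9259569 for cytosol and 6295282 to 8201848 for nuclear RNA. FLII was 143.1 RPKM (reads scaled by gene length and library size) in H1299 vector and 625.5 in H1299 FLII mRNA, and 75.32 in HBE NC and 13.75 in HBE knockdown mRNA. In cytosol and nuclear RNA FLII reads also followed the labels, at 2829 and 5713 and 1855 and 7074 in H1299 vector and FLII, and 1614 and 236 and 2769 and 402 in HBE NC and knockdown. The RNC libraries labelled H1299 went against their labels: FLII was 89.23 RPKM in the library labelled H1299 vector and 5.608 in the one labelled H1299 FLII. In those labelled HBE NC and HBE knockdown it was 36.52 and 30.02. Some RNC libraries also went against the line. KRT5, a keratin of basal epithelium, had 5272 reads in HBE NC mRNA and 23 in H1299 vector mRNA. It had 9515 in the RNC library labelled H1299 FLII and 1 in the one labelled HBE knockdown. In those labelled H1299 vector and HBE NC KRT5 went with the line, at 0 and 7165 reads. RNC libraries are therefore named by their labels throughout, and a direction drawn from them is one between libraries so labelled. With 1 library per group no difference has a replicate check. A gene was called where its fold was at least 2 and the exact 95% interval of the fold excluded no change; intervals cover counting error only.

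Of the 43 members, 23 had 100 or more reads summed over the 16 libraries. Another 6 had 20 to 98 reads in all and 14 had under 20, among them COL14A1 with 1, COL6A6 and COL9A1 with 2 each, and COL1A2 with 12. Collagen genes took 730 to 1990 CPM (the reads of a gene scaled to the library total) in mRNA, 638 to 1336 in nuclear RNA, 148 to 190 in cytosol and 143 to 833 in RNC libraries. The order of the fractions therefore had nuclear and mRNA libraries high and cytosol libraries low in both lines.

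**Figure D1:**
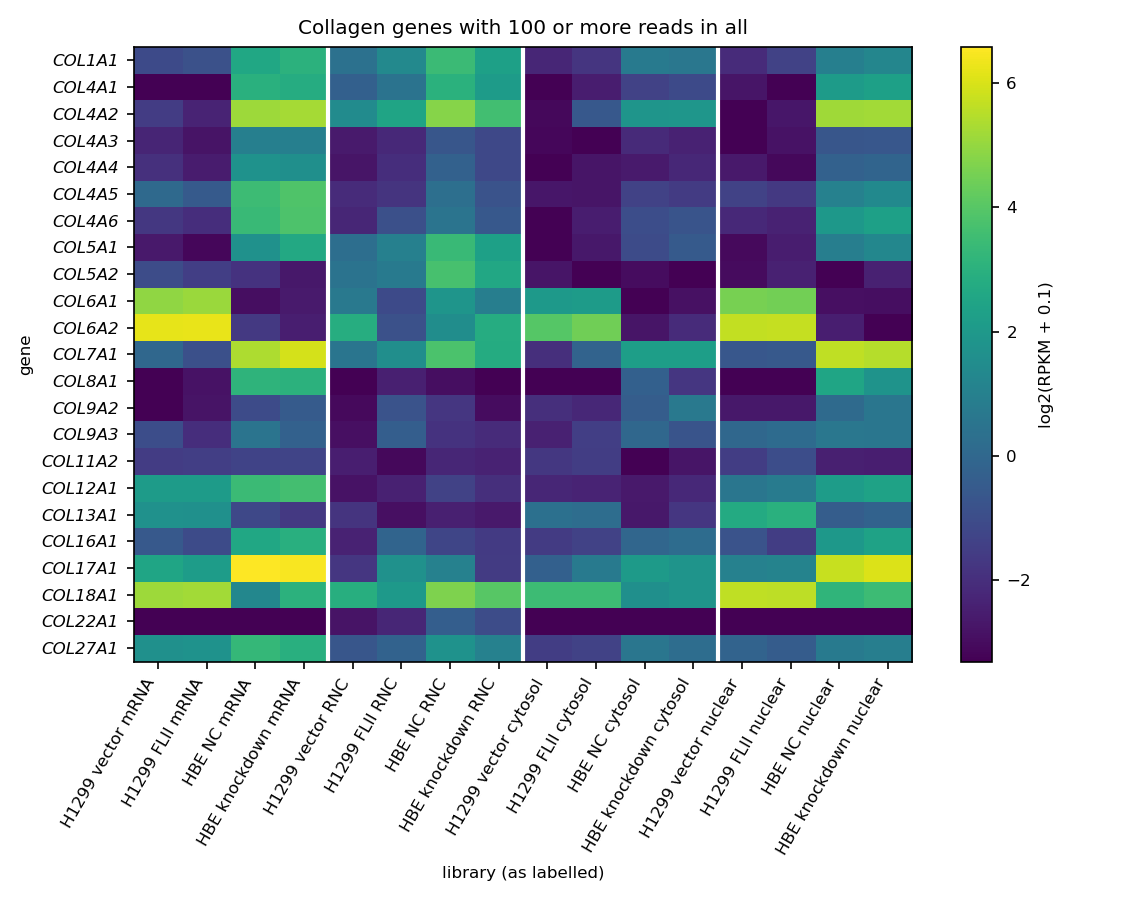
Level of the 23 collagen genes with 100 or more reads in all 16 libraries together, as log2(RPKM + 0.1), with 1 column per library and white lines between mRNA, RNC, cytosol and nuclear RNA. COL6A1, COL6A2 and COL18A1 are bright in the H1299 columns outside RNC, COL17A1, COL7A1 and COL4A2 in the HBE columns, and COL22A1 has reads in RNC columns only.

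The lines expressed different collagens. In mRNA, 4 members were higher in H1299 vector and 15 were higher in HBE NC, of 21 with 20 or more reads in the pair, and 43.6% of all genes tested were called in this comparison. Of all genes tested 21.2% were higher and 22.4% lower in H1299, with a median log2 fold of -0.01, while the median of the 21 members was -3.76. It was -1.60 over the 37 members with any read in the pair and -1.95 over 19 with RPKM. In cytosol 4 members were higher and 6 lower in H1299 of 10 tested, with 48.9% of all genes called, 26.7% higher and 22.2% lower. In nuclear RNA 4 were higher and 15 lower of 20, with 45.3% of all genes called, 22.3% higher and 23.1% lower. In bulk RNA fewer cells that express a gene and less RNA per cell cannot be told apart.

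COL17A1, a transmembrane collagen of the hemidesmosome, had the highest RPKM of any member. Its reads in mRNA were 4462 in HBE NC (96.11 RPKM) and 3755 in HBE knockdown (89.13 RPKM), against 186 (5.578 RPKM) in H1299 vector and 205 (4.379 RPKM) in H1299 FLII. It was lower in H1299 by a log2 fold of -4.37 (95% interval -4.59 to -4.16) in mRNA, -2.92 in cytosol and -5.03 in nuclear RNA. Both HBE libraries thus lay far above both H1299 libraries. Over the 16 libraries, the log2(RPKM + 1) of COL17A1 was most like that of GCNT1 (Pearson r = 0.9829), which encodes a glycosyltransferase, and SLC4A11 (r = 0.9768), which encodes a membrane transporter. These are correlations over 16 libraries that share lines and fractions, given as a description.

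COL7A1 encodes the anchoring fibril collagen that ties the basement membrane to the matrix under it. It had 3143 reads in HBE NC mRNA and 4250 in HBE knockdown mRNA, against 48 and 33 in H1299 vector and H1299 FLII, a log2 fold between the control lines of -5.81 (-6.26 to -5.41). The nuclear libraries gave 3350 and 3372 reads in HBE and 31 and 34 in H1299, a log2 fold of -6.75. The lines did not overlap in these fractions.

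All 6 type IV chains, which build the basement membrane mesh, were higher in HBE in mRNA. COL4A2 had 1832 reads in HBE NC and 9 in H1299 vector (log2 fold -7.39, -8.59 to -6.53). COL4A1 had 418 and 0 reads, at least 120-fold lower in H1299 against a floor of 3 reads. COL4A5 had 587 and 37 reads, COL4A6 580 and 8, COL4A4 276 and 10, and COL4A3 125 and 5. Their log2 folds were -3.76, -5.89, -4.51 and -4.31. The same 6 were called in nuclear RNA, where COL4A2 had 1658 reads in HBE NC and 0 in H1299 vector, at least 561-fold lower in H1299. HBE thus carried reads for every type IV chain, with the most for COL4A2.

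The type IV genes lie head to head in pairs, so a pair shares the stretch between its start sites. That stretch is shown on the plus strand from the RefSeq promoter table of GRCh38.p14, because the chains of a pair were compared next. For COL4A1 and COL4A2, whose starts are 127 bases apart, it is the whole 126 bases between them, at chr13:110307158-110307283. For COL4A4 and COL4A3, 419 bases apart, it is the 250 bases before COL4A3, at chr2:227164374-227164623. For COL4A6 and COL4A5, 380 bases apart at the nearer of the 2 COL4A6 starts, it is the 250 bases before COL4A5, at chrX:108439588-108439837. Capitals mark GC boxes (GGGCGG or its reverse complement CCGCCC) and CCAAT boxes (CCAAT or ATTGG).
COL4A1/COL4A2: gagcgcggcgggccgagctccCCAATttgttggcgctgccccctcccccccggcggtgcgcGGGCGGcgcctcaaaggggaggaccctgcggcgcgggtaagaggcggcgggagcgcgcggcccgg
COL4A4/COL4A3: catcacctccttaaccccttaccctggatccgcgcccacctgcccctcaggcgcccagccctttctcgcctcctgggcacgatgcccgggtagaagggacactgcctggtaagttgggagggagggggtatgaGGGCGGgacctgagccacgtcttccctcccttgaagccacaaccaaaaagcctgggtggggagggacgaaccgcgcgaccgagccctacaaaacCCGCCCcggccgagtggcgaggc
COL4A6/COL4A5: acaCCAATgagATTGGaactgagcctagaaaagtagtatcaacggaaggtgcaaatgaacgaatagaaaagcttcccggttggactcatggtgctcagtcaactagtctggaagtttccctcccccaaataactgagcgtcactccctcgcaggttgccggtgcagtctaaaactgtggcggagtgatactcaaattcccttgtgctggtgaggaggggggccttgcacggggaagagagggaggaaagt
The first holds 1 GC box and 1 CCAAT box, the second 2 GC boxes, and the third 2 CCAAT boxes and no GC box. Of 35116 RefSeq windows, 42.6% hold a GC box and 32% a CCAAT box in the 250 bases before the start, and 34.6% and 21.1% in the last 126 bases. In windows of 300 bases, 24 of 43 windows of 31 members hold a GC box (45.0% of all windows), 14 a CCAAT box (34.6%) and 8 a TATA box, TATAAA or TTTATA (11.5%). A match is a description of the letters and not a site.

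Partner chains that share a start region were level in some libraries and unequal in others. Per base of transcript, COL4A2 was 4.57 times COL4A1 in HBE NC mRNA (95% interval 4.11 to 5.10), 5.49 times in HBE knockdown mRNA, 8.48 times in HBE NC nuclear RNA and 12.4 times (6.72 to 25.5) in HBE NC cytosol. In the 4 RNC libraries the ratio was 2.86 to 4.26. COL4A4 was 1.73 times COL4A3 in HBE NC mRNA (1.40 to 2.15). COL4A6 and COL4A5 were level in HBE NC mRNA, at a ratio of 0.961 (0.855 to 1.08), but COL4A6 was at 0.210 times COL4A5 in H1299 vector mRNA (0.0846 to 0.459) and 0.236 in H1299 FLII mRNA. In HBE nuclear RNA it was above COL4A5, at 1.90 (1.48 to 2.47) and 1.94. The plot of partner ratios shows COL4A2 above COL4A1 in every library drawn, while the order of COL4A6 and COL4A5 differs between lines and fractions.

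**Figure D2:**
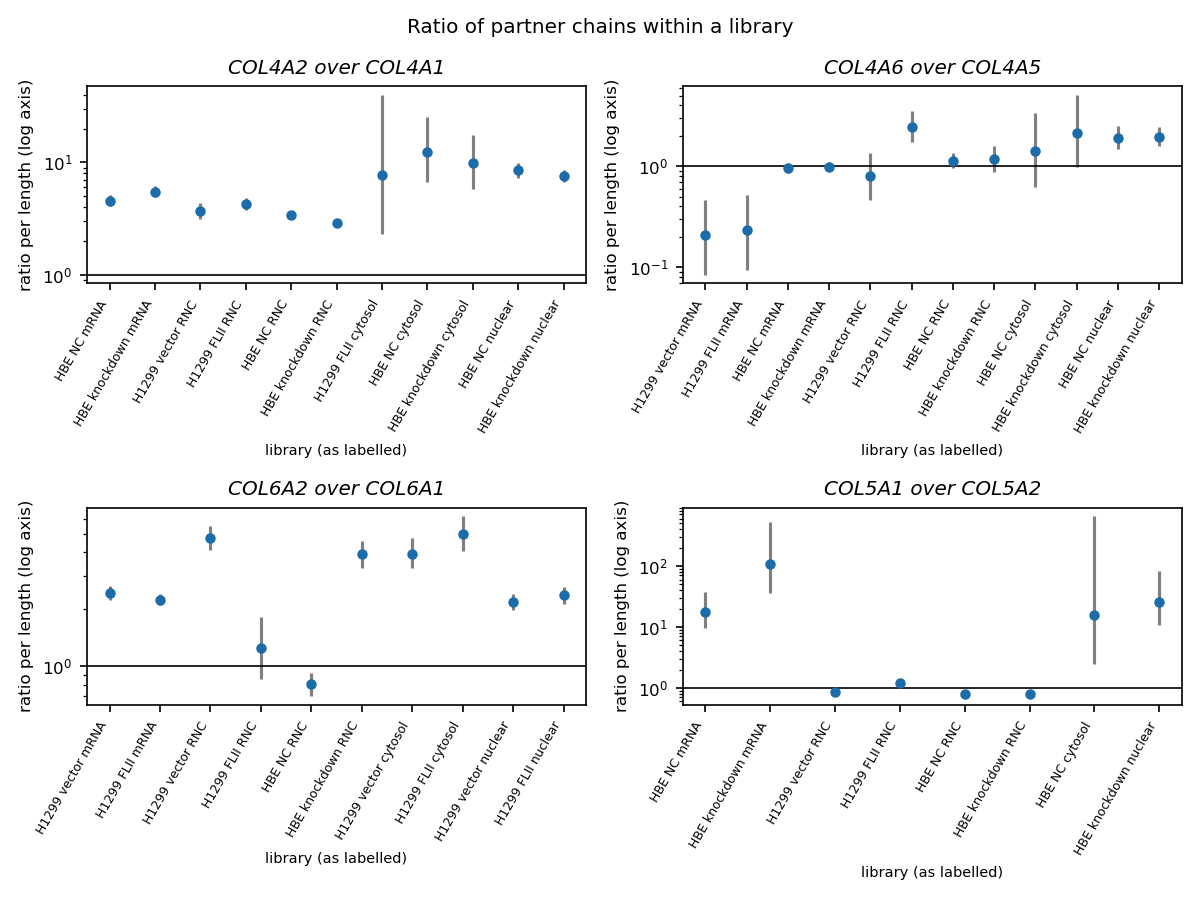
Ratio of partner chains within each library, corrected for transcript length, on a log axis with exact 95% intervals; libraries with fewer than 20 reads for the pair, or none for the second gene, are left out. COL4A2 lies above COL4A1 throughout, and COL5A1 is 17.8 times COL5A2 in HBE NC mRNA but 0.809 to 1.21 times in the 4 RNC libraries.

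H1299 in turn expressed type VI collagen, which forms beaded filaments around cells. COL6A2 had 1516 reads in H1299 vector mRNA (74.02 RPKM) and 2203 in H1299 FLII mRNA, against 6 in HBE NC and 2 in HBE knockdown. COL6A1 had 762 and 1201 reads in H1299 and 1 and 2 in HBE. Their log2 folds between the control lines in mRNA were 8.07 (7.07 to 9.64) and 9.16 (7.30 to 15.09). COL6A3, whose chain assembles with these in the classical type VI molecule, had 0 reads in both H1299 mRNA libraries and 17 in the 16 libraries together, 0 to 5 in each. A count of 0 in H1299 vector mRNA allows up to 0.505 CPM. COL6A5 and COL6A6 had 4 and 2 reads in all, so of the type VI genes only COL6A1 and COL6A2 passed 20 reads in any mRNA library.

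COL18A1, a basement membrane collagen whose end fragment is endostatin, had 1213 reads in H1299 vector mRNA and 111 in HBE NC mRNA (log2 fold 3.65, 3.38 to 3.96). COL13A1, a transmembrane collagen of adhesion sites, had 58 and 9 reads (2.83, 1.88 to 4.10). Both were also higher in H1299 in cytosol and nuclear RNA. For COL18A1 the overlap with SLC19A1 is a limit, since strand handling in the counting is not given. SLC19A1 itself had 475 and 493 reads in these mRNA libraries.

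Among the fibrillar collagens, COL1A1 had 291 reads in HBE NC mRNA and 13 in H1299 vector mRNA (log2 fold -4.23), COL5A1 had 217 and 3 (-5.76), and COL27A1 had 441 and 101 (-1.91). In nuclear RNA COL27A1 was at -1.18, a call lost with total counts (-0.94) and with RPKM (-0.50). COL1A2, the usual partner of COL1A1 in type I collagen, had 3 reads in HBE NC mRNA and 0 in HBE knockdown mRNA. COL3A1 had 0 in both. COL5A2, the usual partner of COL5A1, had 10 and 16 reads in HBE NC and H1299 vector mRNA and was not called (0.86, -0.34 to 2.19). COL1A1 and COL5A1 were thus read in HBE with few or no reads of their partners.

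The remaining members called lower in H1299 mRNA were COL8A1, a short chain network collagen (0 against 221 reads, at least 63.6-fold), the fibril-associated COL16A1 (19 against 275), COL12A1 (290 against 1016) and COL9A3 (6 against 27). COL12A1 was among the few abundant in both lines. COL11A2 had 9 and 16 reads and was not called. Of the other matrix genes, 7 of 32 tested were higher and 17 lower in H1299 mRNA, among the lower the laminin LAMA5 (931 against 19805 reads) and the basement membrane protein NID2 (51 against 2903). Of the collagen receptors, 2 of 9 were higher and 6 lower, the lower including DDR1 (491 against 7923) and SDC1 (111 against 6430). The epithelial marker list had 14 of 15 genes lower in H1299. Of the biosynthesis genes 7 of 28 were higher and 8 lower, and of the degradation genes 8 of 14 and 4.

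Collagen mRNAs lay towards the nuclear libraries. Nuclear over cytosol, 8 of 10 members tested were higher and 0 lower in H1299 vector, where 27.5% of all genes were called, 14.8% higher and 12.7% lower. In HBE NC 13 of 17 were higher and 0 lower (39.8% of genes called, 22.8% higher and 17.0% lower). In HBE knockdown 13 of 18 were higher and 0 lower (41.5% of genes called, 23.9% higher and 17.6% lower). In H1299 FLII 4 of 11 were higher and 1 lower (36.2% of genes called, 17.9% higher and 18.3% lower), or 4 and 2 with DESeq2 size factors and 7 and 1 with total counts. The members' median log2 folds were 1.41, 2.21, 2.05 and 0.76 in these 4 groups. Over all genes tested the medians were -0.00, 0.14, 0.18 and 0.05, and over genes of 4000 bases or longer 0.29, 0.62, 0.66 and 0.45. With total counts the median of all genes was 0.32, 0.66, 0.73 and 0.59. The 1 member lower in H1299 FLII was COL4A2, with 2 nuclear and 22 cytosol reads. How the nuclear and cytosol RNA were separated is not given in the sources used here.

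COL12A1, a fibril-associated collagen with the longest transcript of the members, had the largest nuclear shift in HBE NC. It had 373 reads in nuclear RNA and 4 in cytosol (log2 fold 5.57, 4.33 to 7.58), 494 and 9 in HBE knockdown (4.85), 102 and 12 in H1299 vector (3.26, 2.45 to 4.32) and 122 and 7 in H1299 FLII (3.46). Its nuclear reads were above its cytosol reads in all 4 groups.

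The epithelial anchoring collagens and type IV chains were also higher in nuclear RNA in HBE. COL17A1 had 2209 nuclear and 135 cytosol reads in HBE NC (3.18, 2.93 to 3.44) and 3112 and 127 in HBE knockdown (3.74). COL7A1 had 3350 and 248 (2.90, 2.72 to 3.10), and 3372 and 275 (2.74). All 6 type IV chains were on the nuclear side in HBE NC, at 1.46 to 3.32, and COL4A2 had 1658 nuclear and 131 cytosol reads (2.81). COL8A1 had 127 and 13 reads (2.41), COL5A1 111 and 19 (1.68), and COL16A1 157 and 29 (1.57). COL18A1 was near the threshold at 1.05 (0.73 to 1.38). It was no longer called with DESeq2 size factors, at 0.94.

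Not every member was shifted. COL1A1, which encodes the main chain of type I collagen, had 81 nuclear and 56 cytosol reads in HBE NC (-0.31, -0.83 to 0.20) and 109 and 56 in HBE knockdown (0.09, -0.39 to 0.58). COL27A1 had 63 and 46 reads in HBE NC (-0.39, -0.97 to 0.19). COL9A2 and COL9A3, chains of cartilage type IX collagen, were at 0.01 (-1.12 to 1.22) and 0.15 (-0.86 to 1.23). COL1A1 and COL27A1 thus lay below the median of long genes while COL17A1, COL7A1 and type IV chains lay far above it.

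In H1299 vector the type VI chains were higher in nuclear RNA, COL6A1 with 619 against 156 reads (2.21, 1.96 to 2.48) and COL6A2 with 1103 against 501 (1.37, 1.21 to 1.52). COL18A1 had 1840 and 595 reads (1.86), COL13A1 131 and 34 (2.16) and COL27A1 28 and 13 (1.30, 0.34 to 2.41). COL17A1, at 68 and 38 reads, was at 1.06 and fell below the threshold with 5 reads added (0.97). COL11A2 had 10 and 12 reads and was not called. Per base, COL6A2 was 2.44 times COL6A1 in H1299 vector mRNA (2.23 to 2.67), 2.19 times in nuclear RNA (1.98 to 2.42) and 3.94 times in cytosol (3.28 to 4.74). The pair was thus more unequal in cytosol than in mRNA or nuclear RNA, and the intervals did not overlap.

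**Figure D3:**
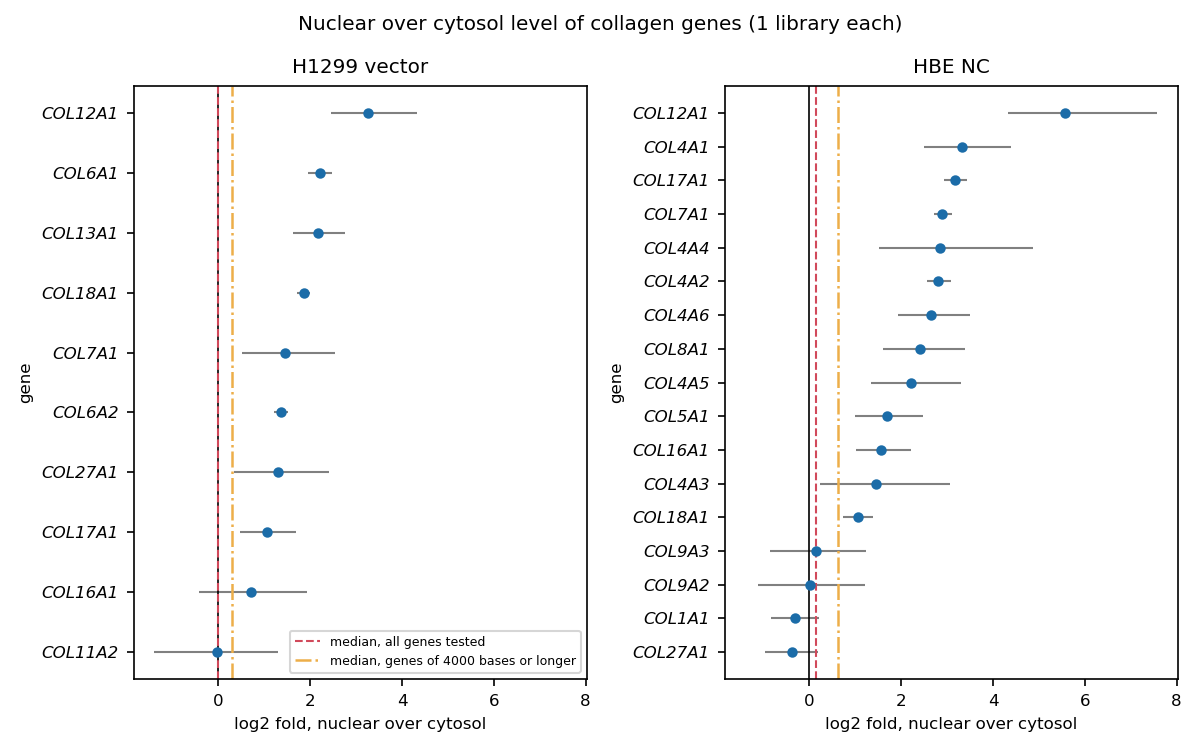
Log2 fold of nuclear over cytosol for each collagen gene tested in H1299 vector (left) and HBE NC (right), with exact 95% intervals for counting error; lines mark 0 and the medians of all genes and of genes of 4000 bases or longer. COL12A1 is at the top in both, at 3.26 and 5.57, and COL1A1 and COL27A1 lie at or below 0 in HBE NC.

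Other mRNAs for secreted or ER proteins showed the same side. In H1299 vector and HBE NC respectively, 25 of 31 and 20 of 27 other matrix genes were higher in nuclear RNA (medians 2.26 and 2.53), as were 14 of 15 and 13 of 15 ER lumen chaperones (2.10 and 2.52). Of the genes for collagen biosynthesis 16 of 28 and 12 of 23 were higher, among them the prolyl hydroxylase subunit P4HA2 (3.05 and 2.03) and MIA3 (2.23 and 3.15), which helps load collagen into ER exit carriers. PCOLCE, the enhancer of procollagen cleavage, was lower in all 4 groups, at -1.08, -1.46, -1.67 and -1.73. Of the collagen receptors 5 of 9 and 4 of 7 were higher, including the integrins ITGB1 (1.83 and 3.06) and ITGA2 (1.77 and 3.79). Of 26 cytosolic housekeeping enzymes 4 and 6 were higher, with medians of -0.11 and 0.06. That is near the share of all genes tested, of which 14.8% and 22.8% were higher.

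The interval of the difference in nuclear shift between the FLII groups excluded 0 for 4 of 9 members in H1299, against 31.2% of all genes, and for 1 of 17 in HBE, against 8.27%. The HBE share is below that of all genes. In H1299, COL7A1 went from 1.45 in vector to -0.98 in FLII, a difference of -2.42 (-3.56 to -1.29), COL17A1 from 1.06 to -0.14 (difference -1.20, -1.96 to -0.43) and COL6A2 from 1.37 to 0.76 (-0.60, -0.82 to -0.39). In HBE, COL17A1 went from 3.18 in NC to 3.74 in knockdown (0.56, 0.20 to 0.91). Of the other 16 HBE differences and 6 H1299 differences, COL18A1 in H1299 had an interval that excluded 0 (-0.26, -0.47 to -0.06). These intervals, from the normal approximation, hold no spread between cultures. Beside the H1299 difference, KRT5 had 145 reads in H1299 FLII cytosol and 10 in H1299 vector cytosol, and 7 of 9 epithelial markers tested were lower in nuclear than cytosol RNA of H1299 FLII. Their part was not tested.

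Few collagen genes were called in the FLII pairs outside RNC. In H1299 mRNA 1 of 15 members was called, lower in FLII, against 0.798% of all genes called, 0.33% higher and 0.468% lower. It was COL7A1, with 33 reads in FLII and 48 in vector (interval of the log2 fold -1.70 to -0.34). Its fold lies at the threshold, and the call was lost with DESeq2 size factors and with 5 reads added (-0.90). The abundant members hardly differed: COL6A2 was at 0.07 (-0.03 to 0.16), COL6A1 at 0.18 (0.05 to 0.32) and COL18A1 at 0.12 (0.02 to 0.23). In H1299 nuclear RNA 0 of 12 were called by the fold and its interval (0.599% of all genes called, 0.407% higher and 0.192% lower). COL6A1 and COL6A2 were at -0.10 and 0.02 there.

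In H1299 cytosol 3 of 10 members were higher in FLII, against 2.68% of all genes called, 1.04% higher and 1.64% lower. COL4A2 had 22 reads in FLII and 1 in vector (4.43, 2.47 to 10.47), COL7A1 45 and 13 (2.38, 1.52 to 3.45) and COL17A1 55 and 38 (1.16, 0.55 to 1.81). All 3 are genes that were far higher in HBE than in H1299 mRNA. In the same cytosol pair 9 of 15 epithelial markers had 20 or more reads in FLII and 5 in vector, and 0 of the 15 were at 0 reads in either. Their summed level was 1447 and 1243 RPKM, most of it from KRT18 (975.4 and 872.3) and KRT8 (387.9 and 362.4). KRT5 was at 10.1 and 0.469 RPKM. Of 9 epithelial markers tested 7 were higher in FLII; their part in these calls was not tested. All 3 members had under 100 reads in the pair. With RPKM 0 of 5 members tested were called: COL17A1 was at 0.57, and COL4A2 and COL7A1 were not among the 5.

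In HBE mRNA 1 of 18 members was called, against 4.95% of all genes called, 2.02% higher and 2.93% lower. COL18A1 had 358 reads in HBE knockdown and 111 in HBE NC (1.69, 1.39 to 2.02), while it was not called in cytosol (0.19, -0.19 to 0.58) or nuclear RNA (0.30, 0.11 to 0.49). SLC19A1, with which it shares sequence, had 465 and 493 reads in the mRNA pair. COL5A1 was at 0.86 (0.62 to 1.11), with 391 and 217 reads, COL7A1 at 0.45 (0.38 to 0.51) and COL17A1 at -0.24 (-0.30 to -0.18). In HBE cytosol 1 of 13 members was called (1.25% of all genes called, 0.625% in each direction). It was COL9A2, with 28 and 11 reads (1.14, 0.13 to 2.33). In HBE nuclear RNA 0 of 18 were called (0.873% of all genes called, 0.55% higher and 0.323% lower), with COL4A2 at 0.00 (-0.09 to 0.10).

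Of the genes for collagen biosynthesis, 0 of 25 were higher and 3 lower in HBE knockdown mRNA. LOX, the enzyme that crosslinks collagen, had 10 reads in knockdown and 111 in NC (-3.40, -4.56 to -2.53). Outside mRNA it had few reads, at 13 against 17 in nuclear RNA and 1 against 0 in cytosol. The prolyl hydroxylase subunits P4HA1 and P4HA2 had 179 against 508 (-1.49) and 227 against 470 reads (-1.04). In nuclear RNA P4HA1 had 146 against 145 reads and P4HA2 306 against 252, and in cytosol 18 against 19 and 48 against 34; neither was called there. Of the other matrix genes 3 of 27 were higher and 1 lower. FN1 (fibronectin) had 6050 and 263 reads (4.53, 4.36 to 4.72) and the microfibril gene MFAP5 348 and 47 (2.88). The other fractions differed less, with FN1 at 521 and 222 reads in nuclear RNA and 9 and 11 in cytosol. MFAP5 had 196 and 125 reads in nuclear RNA and 29 and 37 in cytosol. The collagen genes other than COL18A1 were not called beside FN1 and MFAP5 in mRNA.

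**Figure D4:**
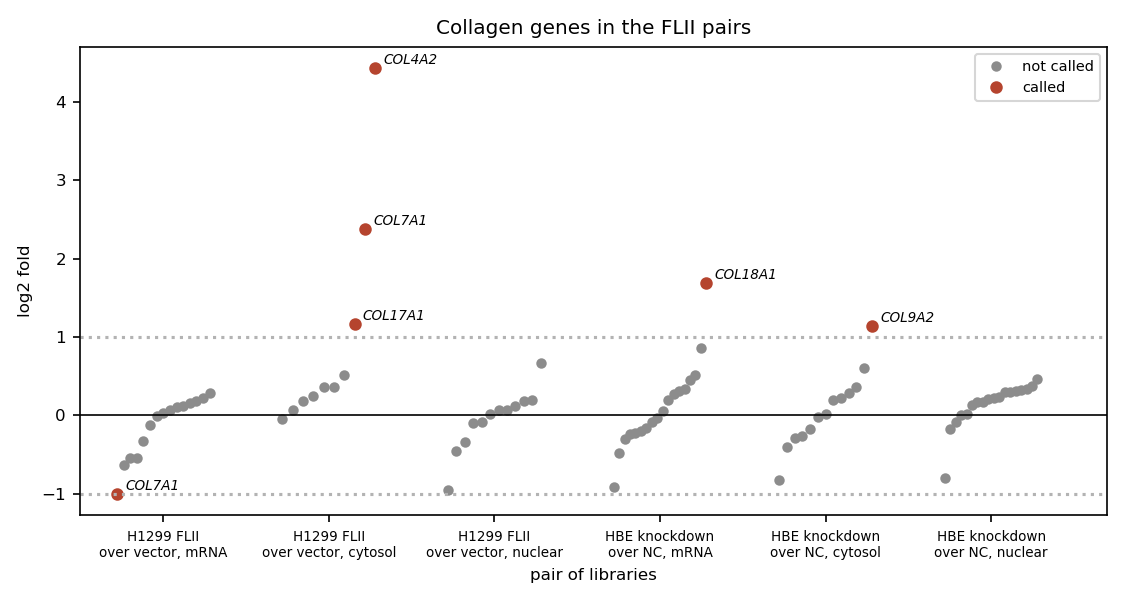
Log2 fold of each collagen gene tested in the 6 FLII pairs outside RNC, 1 point per gene in order of its fold, with called genes named and dotted lines at folds of 2. COL4A2, COL7A1 and COL17A1 in H1299 cytosol and COL18A1 in HBE mRNA stand above the line, and 0 points are coloured in the nuclear pairs.

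RNC libraries differed from mRNA libraries in both directions. RNC over mRNA, 7 of 19 members were higher and 5 lower in the libraries labelled H1299 vector, where 64.3% of all genes were called, 32.6% higher and 31.6% lower. In those labelled HBE NC 9 of 25 were higher and 8 lower (41.8% of all genes called, 24.8% higher and 17.0% lower). This split moved with the scaling. With total counts it was 5 higher and 11 lower in H1299 and 8 and 12 in HBE, and with RPKM 1 and 7 and 5 and 9. Over all genes the median was -0.09 in H1299 and 0.05 in HBE, and -2.26 and -0.88 with total counts.

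COL12A1 and COL17A1 were lower in RNC under each scaling tried. COL12A1 had 18 RNC and 290 mRNA reads in the libraries labelled H1299 vector (-4.43, -5.25 to -3.79) and 115 and 1016 in those labelled HBE NC (-4.25, -4.55 to -3.98). COL17A1 had 42 and 186 reads (-2.60) and 378 and 4462 (-4.68). COL8A1 had 3 RNC and 221 mRNA reads in the libraries labelled HBE NC (-7.01, -9.61 to -5.76). COL16A1 had 62 and 275 (-3.25). SERPINH1, the collagen chaperone, was also lower there, with 2768 and 4194 reads (-1.72).

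Of the fibrillar chains, COL5A2, COL5A1 and COL1A1 were higher in the RNC libraries of both labels. COL1A2 had 0 reads in every RNC library, and COL3A1 had 0 to 5. COL5A2 had 333 RNC and 16 mRNA reads in the libraries labelled H1299 vector (3.88, 3.19 to 4.73) and 3030 and 10 in those labelled HBE NC (7.08, 6.24 to 8.19). COL5A1 had 348 and 3 reads (6.20) and 2983 and 217 (2.66), and COL1A1 267 and 13 (3.85) and 2160 and 291 (1.77). With total counts COL1A1 in HBE NC was at 0.84 and no longer called. With RPKM the H1299 calls were lost, at 0.71, 0.98 and 0.68 for COL5A2, COL5A1 and COL1A1, as was that of COL1A1 in HBE NC, at 0.75. Of the basement membrane and anchoring collagens, COL4A2 had 632 and 9 reads in the libraries labelled H1299 vector (5.60) and 5834 and 1832 in those labelled HBE NC (0.55, not called). COL7A1 had 469 and 48 (2.81, and 0.62 with total counts) and 4242 and 3143 (-0.69, not called). In the libraries labelled HBE NC, COL18A1 had 5141 and 111 reads (4.41); SLC19A1 had 1523 and 493.

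COL22A1, a fibril-associated collagen of tissue junctions, had reads in RNC libraries alone, as did COL20A1 with 5, 1, 10 and 2 reads. It had 10 reads in the RNC library labelled H1299 vector, 27 in H1299 FLII, 147 in HBE NC and 67 in HBE knockdown, and 0 in the other 12 libraries, which held 86342264 reads. RNC over mRNA it was at least 22.6-fold higher in the libraries labelled HBE NC. This bound depends on the scaling. By library totals COL22A1 was at 4.293 CPM in that RNC library, against a floor of 0.3625 CPM in HBE NC mRNA. Of 12337 genes with 10 or more reads in each RNC library, 10 had 0 reads in the other 12. That minimum of 10 equals the lowest RNC count of COL22A1 itself, so this count is a description. COL5A2 was the nearest other member, with 98.83% of its reads in RNC libraries. Its levels there were 8.85, 10.8, 88.5 and 42.0 CPM in that order, against at most 2.69 elsewhere. Of 26 members with 20 or more RNC reads, COL5A2 and COL22A1 (7.69%) had every RNC library above every other library. Of all 15525 genes with that minimum, 256 (1.65%) did. COL22A1 passed the minimum of 20 through RNC reads alone, so the count of 256 and the 7.69% are descriptions as well.

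**Figure D5:**
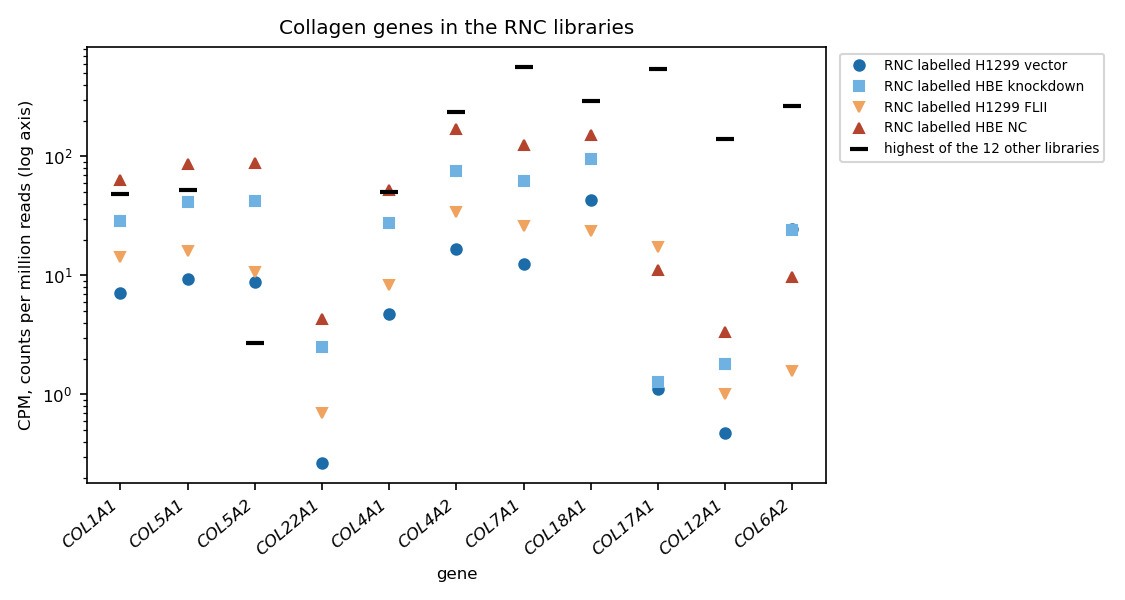
Level in CPM of 11 collagen genes in the 4 RNC libraries, named by label, with a black bar for the highest of the 12 other libraries, on a log axis; COL22A1 has no bar because its reads there are 0. COL5A2 lies above its bar in all 4 RNC libraries, while COL17A1, COL12A1 and COL6A2 lie below theirs.

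Within the RNC libraries the same label was highest for most members: 20 of 26 (76.9%) were highest in the library labelled HBE NC, against 47.1% of 15525 genes. The exceptions highest in the library labelled H1299 FLII were COL9A2, COL9A3, COL16A1 and COL17A1 (52, 64, 176 and 667 reads). Those highest in the library labelled H1299 vector were COL6A2 and COL13A1 (922 and 21 reads). The minimum of 20 reads was on the sum of the RNC libraries. COL15A1, COL21A1 and COL25A1 reached it only with their reads in the library labelled HBE NC. The share of 76.9% is therefore a description. COL17A1 had 42, 667, 378 and 34 reads in the order H1299 vector, H1299 FLII, HBE NC and HBE knockdown. Ratios to COL5A2 per base were computed for 6 members chosen after their values were seen, and are given as a description. In that order, COL5A1 was 0.858, 1.21, 0.809 and 0.810 times COL5A2 and COL1A1 0.938, 1.56, 0.834 and 0.799 times. COL4A2 was 2.10, 3.50, 2.13 and 1.98 times COL5A2 and COL7A1 1.06, 1.84, 1.06 and 1.12 times. These 4 had their highest ratio in the library labelled H1299 FLII, as had COL22A1 (0.0328, 0.0712, 0.0530 and 0.0652), whose intervals in the libraries labelled H1299 FLII, HBE NC and HBE knockdown overlap. COL18A1, at 5.71, 2.57, 2.00 and 2.64, had its highest in the one labelled H1299 vector. In HBE NC mRNA COL5A1 was 17.8 times COL5A2 (9.51 to 37.7).

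RNC over mRNA in the libraries labelled HBE NC, 5 of 28 biosynthesis genes were higher and 7 lower, 5 and 4 of 14 degradation genes, 2 and 5 of 11 receptors and 7 and 13 of 31 other matrix genes. Fibroblast markers were 6 higher and 1 lower of 10 tested, with a median of 4.44. Values follow as RNC and then mRNA reads. Among the higher genes outside the fibroblast list, the prolyl hydroxylase subunit P4HA3 had 600 and 0, the fibrillar collagen receptor ITGA11 665 and 0 and the matrix protease MMP2 550 and 2. Within the fibroblast list VIM, the intermediate filament of mesenchymal cells, had 14888 and 49. The 16 fibroblast markers summed to 136, 159, 511 and 281 RPKM in the RNC libraries in the order above, with 3, 2, 3 and 4 of the markers at 0 reads. Much of each sum came from VIM, at 69.0, 25.9, 203.5 and 142.6 RPKM, and S100A4, at 51.4, 87.8, 279.5 and 120.3. The whole list summed to 42.0 RPKM in HBE NC mRNA and 2993 in H1299 vector mRNA, where VIM alone was at 2949. Of the other markers, THY1 had 7, 9, 77 and 20 RNC reads and 0 in the other 12 libraries. SPARC had 81 RNC reads against 0 mRNA reads in the libraries labelled HBE NC. DCN and LUM were at 0 in the RNC libraries labelled H1299 vector, HBE NC and HBE knockdown. The part of the fibroblast markers in the collagen reads was not tested.

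Members also differed in the FLII pairs within RNC. By label, 7 of 22 members were higher and 5 lower in H1299 FLII over vector (49.0% of all genes called, 26.1% higher and the rest lower). The split was 11 and 4 with total counts, 3 and 3 with 100 or more reads and 1 and 1 of 10 tested with RPKM. Far apart were COL6A2, with 60 against 922 reads (-4.18), and COL17A1, with 667 against 42 (3.72). In HBE knockdown over NC 1 of 25 was higher and 4 lower (30.6% of all genes called, 18.9% higher and 11.7% lower), or 1 and 12 with total counts, 1 and 1 with 100 or more reads and 1 and 2 with RPKM. COL6A2 had 638 against 333 reads (1.65) and COL17A1 34 against 378 (-2.75). COL6A2 thus stood high in the RNC libraries labelled H1299 vector and HBE knockdown, and COL17A1 in the other pair. In the pair labelled H1299, where FLII goes against the labels, a difference by FLII and one by library identity cannot be told apart. The same holds for the pair labelled HBE, where KRT5 had 7165 reads in NC and 1 in knockdown.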

How the data were processed

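The 16 libraries of polyA RNA were made with an mRNA kit for Illumina, per the labels' protocols. Each of the authors' deposited files gives, per the file headers, the gene length, the read count and the RPKM of 23709 genes. The submitters' processing notes name GRCh37 and hg19. Which aligner, counter and strand setting were used is not given in the sources used here. Counts of each pair of libraries were scaled with TMM (edgeR 4.0.16, R 4.3.3), 0.5 reads were added, and genes with 20 or more reads in the pair were compared with an exact Clopper-Pearson 95% interval. There were 17 comparisons and 6 alternatives, including DESeq2 1.42.0 size factors. No p-values were computed, since each group has 1 library. The fold calls were tested on simulated counts that held counting error alone. That simulation cannot show how the calls hold between cultures. Members with 100 or more reads were described with their values, others by range. From lists of collagen biosynthesis, degradation, receptors and other matrix genes, up to 4 genes called in each direction were named; GCNT1 and SLC4A11 are the 2 genes most like COL17A1. FLII was always named. KRT5, KRT8, KRT18, VIM, S100A4, DCN, LUM, THY1, SPARC and the enzyme and chaperone lists served as context. SLC19A1 was chosen after its overlap was seen. Members and lists were chosen with earlier results of these data known. Of the degradation genes, 6 of 11 tested were higher in nuclear RNA of H1299 vector and 4 of 12 in HBE NC. Of all genes tested 14.8% and 22.8% were higher there. Endothelial markers summed to 0.687 to 21.4 RPKM in the 16 libraries.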

Additional observations from a re-analysis of the deposited data

Results flagged for a closer look

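RNC over mRNA, 3 collagen genes were called in opposite directions in the lines, by the labels of the libraries. COL4A6 had a log2 fold of 1.24 in H1299 vector and -2.09 in HBE NC; with total counts both were below 0, the first at -0.88. COL6A1 was at -2.15 and 7.45, and COL6A2 at -1.19 and 4.60. The difference between the lines was not tested, since each value comes from 1 library against 1. COL6A1 and COL6A2 had 1 and 6 reads in HBE NC mRNA against 508 and 333 in the RNC library labelled HBE NC. Per base, COL6A2 was 0.804 times COL6A1 (0.698 to 0.925) in that RNC library, against 4.77 times in the one labelled H1299 vector, 3.89 times in HBE knockdown and 1.25 times in H1299 FLII.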

How the results depend on the processing

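No paired analysis was possible because each group has 1 library and no replicate numbers. Of the 17 counts of collagen genes called, those not named here stayed within 1.5 times under the 6 alternatives. With 1 or more reads in the pair, the count rose from 10 to 20 for the line contrast in cytosol and from 1 to 2 for HBE knockdown in cytosol. With 100 or more reads it went to 6 for the line contrast in cytosol, to 6 from 12 for H1299 FLII in RNC, to 2 from 5 for HBE knockdown in RNC, and to 0 for H1299 FLII in mRNA and cytosol and HBE knockdown in cytosol; fewer members were tested. With total counts it went from 5 to 8 for nuclear over cytosol in H1299 FLII and from 5 to 13 for HBE knockdown in RNC. With DESeq2 size factors it went from 1 to 0 for H1299 FLII in mRNA, and with 5 reads added to 0 there and for HBE knockdown in cytosol. With RPKM it went from 8 to 5 for nuclear over cytosol in H1299 vector, to 2 for H1299 FLII in RNC, to 3 for HBE knockdown in RNC, and to 0 for H1299 FLII in mRNA and cytosol and HBE knockdown in cytosol. COL4A6, RNC over mRNA in H1299 vector, reversed to -0.88 with total counts; the cause was not tested. Of 284 folds of single members, total counts gave 27 new calls and ended 4, DESeq2 size factors 3 and 2, and 5 reads added ended 6; of the folds still tested with RPKM, 6 were new calls and 14 ended. The median of the members for RNC over mRNA in H1299 vector moved from 0.37 to -1.74 with total counts and -1.60 with RPKM. Members with few reads limit the counts: in cytosol 10 of 43 could be tested between the lines.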
